A study of Arabidopsis thaliana with 11 samples.

Results

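A set of 10 genes grouped as carbon starvation genes, several of them known to rise when plant cells run short of sugar or light, was followed through the root tips of 3 signalling mutants of Arabidopsis thaliana. They were ASN1, DYL1, AT2G33830, AT3G15450, SIS, SEN1, DIN10, AKINBETA1, AT5G21940 and BCAT2, picked by locus identifier from the 28495 genes of each of 3 tables. All 10 were present in every table. They were picked because of their values in these same comparisons, so their differences from wild type are given as a description and are not evidence that such genes change as a class.

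The series held 11 root tip samples in 4 groups, namely crn-3 with 2 samples, clv2-gabi with 3, cle40-2 with 3 and wild-type Col-0 with 3. The mutants carry alleles of CRN (CORYNE), a membrane-bound kinase-like protein, of CLV2, its receptor-like partner, and of CLE40, a secreted signalling peptide, and all groups were in the Col-0 background. The plants grew upright on agar at 21 °C in constant light, on a medium that contained 10 g/l sucrose. No group was grown without sugar or in darkness, so the name of the set could not be checked in these data, and the sources used here do not give the age of the plants.

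The values available were the authors' mean normalised read count per group, a fold change of mutant over Col-0, and an adjusted p-value. The tables hold no value per sample, so neither a standard deviation nor an interval can be attached to a mean, a mean may rest on 1 library, and depth per sample is unknown. The 3 comparisons share the same Col-0 samples and are therefore not independent of each other. A gene is called here where the adjusted p in the authors' deposited table was under 0.05. In place of a replicate error, the central 95% of fold changes over all genes with a similar average mean and a finite fold change is given beside the members. This range holds real changes as well as error.

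When sugar supply to a plant cell drops, the kinase complex SnRK1, the plant relative of yeast SNF1 and animal AMPK, is active, and growth processes give way to the use of proteins and amino acids as fuel. Transcription factors of the bZIP family act downstream of it, and trehalose 6-phosphate, a signal of sucrose supply, restrains it. ASN1 (also DARK INDUCIBLE 6) encodes an enzyme of asparagine synthesis that stores nitrogen in a carbon-poor form and is a textbook marker of this state. DYL1 (also DRM1) and AT2G33830 (also DRM2) encode dormancy-associated proteins, and DYL1 transcript is known from resting buds. SEN1 and DIN10 are also named DARK INDUCIBLE genes, BCAT2 belongs to the branched-chain aminotransferases, and AKINBETA1 is a β subunit of SnRK1 itself.

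Promoter sequence is shown for 4 of the 7 members called higher in clv2-gabi, so that the letters upstream of ASN1, DYL1, AT2G33830 and AT3G15450 can be read beside their values. Each run is the 300 bases before the annotated gene start in the RefSeq annotation of TAIR10.1, written 5′ to 3′ on the strand of the gene. Capitals mark matches on either strand to CACGTG (the G-box bound by bZIP proteins), ACTCAT (a bZIP element of the proline dehydrogenase promoter), TATCCA and TTATCC (elements of sugar-repressed promoters, which overlap where TTATCCA occurs), and AAACCCTA (an element of growth-related genes, searched as a contrast).
ASN1, chr3:17441432-17441731, minus strand: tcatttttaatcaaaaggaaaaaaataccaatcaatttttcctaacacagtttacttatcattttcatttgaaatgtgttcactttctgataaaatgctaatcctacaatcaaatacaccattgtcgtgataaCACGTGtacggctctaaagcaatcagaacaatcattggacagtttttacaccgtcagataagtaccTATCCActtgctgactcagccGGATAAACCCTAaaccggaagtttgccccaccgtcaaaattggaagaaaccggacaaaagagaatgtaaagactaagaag
DYL1, chr1:9935441-9935740, minus strand: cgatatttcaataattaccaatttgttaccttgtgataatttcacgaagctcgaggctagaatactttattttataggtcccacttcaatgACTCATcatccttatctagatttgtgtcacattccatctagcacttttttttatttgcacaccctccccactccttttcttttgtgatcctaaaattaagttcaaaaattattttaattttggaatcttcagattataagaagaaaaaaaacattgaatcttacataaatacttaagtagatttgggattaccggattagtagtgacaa
AT2G33830, chr2:14310609-14310908, minus strand: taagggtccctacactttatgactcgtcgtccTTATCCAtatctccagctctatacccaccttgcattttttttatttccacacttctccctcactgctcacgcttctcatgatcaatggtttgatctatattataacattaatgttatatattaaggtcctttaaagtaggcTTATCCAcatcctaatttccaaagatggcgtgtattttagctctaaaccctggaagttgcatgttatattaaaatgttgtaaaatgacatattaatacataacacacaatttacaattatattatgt
AT3G15450, chr3:5212684-5212983, plus strand: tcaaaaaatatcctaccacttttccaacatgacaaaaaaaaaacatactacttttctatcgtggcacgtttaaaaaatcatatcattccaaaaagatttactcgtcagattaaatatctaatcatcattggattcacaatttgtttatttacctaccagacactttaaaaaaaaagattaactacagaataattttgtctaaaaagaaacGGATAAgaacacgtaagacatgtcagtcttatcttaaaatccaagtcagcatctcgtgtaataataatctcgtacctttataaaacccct

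The ASN1 window held CACGTG starting 167 bases before the gene start, TATCCA at 101, TTATCC on the other strand at 80 and AAACCCTA at 76. AT2G33830 held TTATCCA at 268 and again at 127 bases before its start, and AT3G15450 held TTATCC on the other strand at 90. DYL1 held ACTCAT at 209 and none of the other letters. Over all 10 members, TTATCC was found in 6 windows, those of ASN1, AT2G33830, AT3G15450, SIS, SEN1 and AKINBETA1, and it was present in 14.6% of the 28007 windows of the same length read for all genes of the tables. TATCCA was in 3 member windows and in 16.1% of all windows, ACTCAT in 2 and in 14.9%, CACGTG in 1 and in 7.07%, and AAACCCTA in 1 and in 5.27%. The windows of DIN10, AT5G21940 and BCAT2 held none of these letters, though DIN10 and AT5G21940 were called higher in clv2-gabi. AKINBETA1, whose window held TTATCC and TATCCA, was not called in any mutant. The windows of ASN1, DYL1, SEN1 and AKINBETA1 overlapped another annotated gene. These matches describe the windows and do not show that a protein binds there.

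In clv2-gabi root tips all 10 members had a higher mean than in Col-0, and 7 of the 10 were called, all of them higher. Of the 22987 genes tested in that table, 0.300% were called higher, and since this contrast served to pick the members nothing is read from the difference. The median change of the members was 2.51-fold on the scale of means plus 1. In crn-3 the mean of 8 members was above Col-0, that of 1 below and that of 1 equal, the median change was 1.27-fold, and 1 of the 9 tested was called higher, where 0.189% of 22793 genes were. In cle40-2 the mean of 6 members was above Col-0 and that of 4 below, the median was 1.60-fold, and 4 of 10 were called higher, where 3.21% of 23602 genes were. No member was called lower in any mutant.

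**Figure D1:**
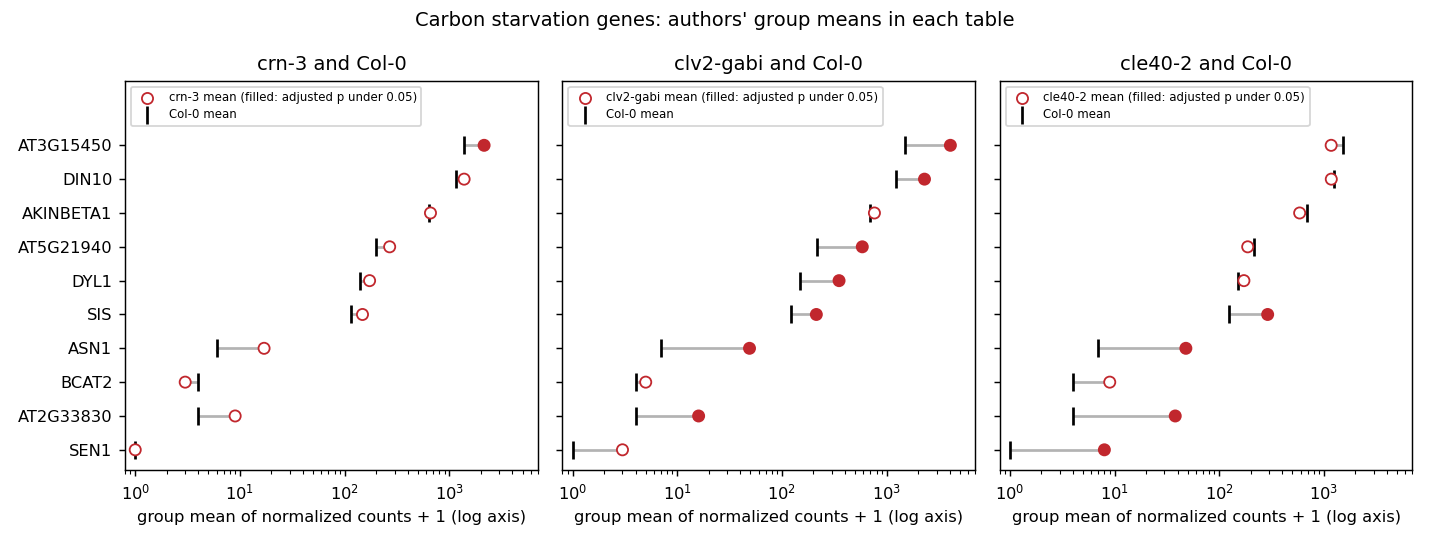
Group means of normalised counts plus 1 on a log axis for the 10 members, 1 panel per deposited table, with the mutant as a circle (filled where the adjusted p was under 0.05) and Col-0 as a bar. In the clv2-gabi panel every circle lies to the right of its bar, while in the cle40-2 panel 6 circles lie to the right of their bars, those of ASN1, AT2G33830, SEN1 and SIS filled, and 4 to the left, AT3G15450, AKINBETA1, AT5G21940 and DIN10.

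Among the genes of nitrogen and amino acid use, ASN1 (AT3G47340, TAIR10.1 chromosome 3, 17437840 to 17441431) was close to the bottom of the range in wild type and had a higher mean in each mutant. The authors' deposited tables gave ASN1 a mean of 16 in crn-3 against 5 in Col-0, of 48 in clv2-gabi against 6 in Col-0, and of 47 in cle40-2 against 6 in Col-0. The fold changes of ASN1 in those deposited tables of the authors were 2.95 in crn-3 (adjusted p of 1), 8.2 in clv2-gabi and 8.02 in cle40-2, the last 2 with an adjusted p that rounds to 0. The clv2-gabi and cle40-2 means were nearly equal, and that of crn-3 lay between them and wild type. In clv2-gabi, 0.0981% of the tested genes at a similar level (an average mean within 2-fold) had a log2 change at least as high as that of ASN1, ASN1 itself included. The share was 2.57% in cle40-2 and 1.48% in crn-3. ASN1 was picked with these comparisons known, so the shares describe its place and are no test of it.

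ASN1 was a minor transcript of its gene family. Per kilobase of transcript, Col-0 had a normalised count of 2.46 for ASN1, 1857 for ASN2 and 1383 for ASN3, the other genes of that enzyme, all in the clv2-gabi table. In clv2-gabi itself the levels per kilobase were 19.7 for ASN1, 1891 for ASN2 and 1399 for ASN3. ASN2 had a fold change near 1 in every mutant, with means in the authors' deposited tables of 3857 in crn-3 against 3827 in Col-0, 4204 in clv2-gabi against 4127, and 4169 in cle40-2 against 4147. BCAT2 (AT1G10070, chromosome 1, 3288087 to 3290471) stayed near the floor, at a mean of 2 in crn-3, 4 in clv2-gabi and 8 in cle40-2 against 3 in Col-0 in each of the authors' deposited tables, and was not called. Its relatives BCAT3, BCAT5 and BCAT6 stood at 2337, 1065 and 1048 per kilobase in Col-0, where BCAT2 stood at 1.8, while BCAT1, BCAT4 and BCAT7 had Col-0 means of 0, 1 and 0 in the authors' deposited tables.

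The dormancy-associated genes differed from each other. DYL1 (AT1G28330, chromosome 1, 9933786 to 9935440) had means of 172 in crn-3 against 138 in Col-0, of 350 in clv2-gabi against 149, and of 171 in cle40-2 against 150, in the authors' deposited tables. The clv2-gabi mean stood apart, at 2.34-fold in the authors' deposited table with an adjusted p that rounds to 0, and the ratios of 1.24 in crn-3 and 1.14 in cle40-2 were not called. For AT2G33830 (chromosome 2, 14308754 to 14310608) the order was another one, with means of 8 in crn-3, 15 in clv2-gabi and 37 in cle40-2 against 3 in Col-0 in each of the authors' deposited tables. Its fold changes in the authors' deposited tables were 2.79 in crn-3 (adjusted p of 1), 5.09 in clv2-gabi (adjusted p = 0.039) and 12.47 in cle40-2 (adjusted p rounding to 0). DYL1 was thus highest in clv2-gabi and AT2G33830 in cle40-2. Whether a gene's change differed between mutants was not tested, since the tables allow no test of it.

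The genes named for induction in darkness were also split. DIN10 (AT5G20250, chromosome 5, 6833564 to 6836862), of the raffinose synthase family, had means of 1382 in crn-3 against 1145 in Col-0, 2296 in clv2-gabi against 1235, and 1174 in cle40-2 against 1240, in the authors' deposited tables. It was called in clv2-gabi at 1.86-fold in the authors' deposited table (adjusted p rounding to 0) and had ratios of 1.21 in crn-3 and 0.95 in cle40-2 without a call. SEN1 (AT4G35770, chromosome 4, 16944878 to 16946266), a senescence-associated gene with a rhodanese-like domain, was listed at 0 in Col-0 in every table. Its mean was listed at 0 in crn-3, where it was not tested, at 2 in clv2-gabi (adjusted p of 1) and at 7 in cle40-2 (adjusted p = 0.017) in the authors' deposited tables. With Col-0 at 0 no fold change is given for SEN1.

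AKINBETA1 (AT5G21170, chromosome 5, 7205477 to 7208613), the SnRK1 subunit among the members, was not called in any mutant. Its means in the authors' deposited tables were 659 in crn-3 against 639 in Col-0, 763 in clv2-gabi against 690, and 585 in cle40-2 against 693, with adjusted p of 1, 1 and 0.638. The ratios of 1.03, 1.11 and 0.84 all lay inside the central 95% of genes at this level, which was 0.80 to 1.20 in crn-3, 0.74 to 1.23 in clv2-gabi and 0.70 to 1.41 in cle40-2.

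The remaining members are less well understood. AT3G15450 (chromosome 3, 5212984 to 5214124), annotated as an aluminium-induced protein with YGL and LRDR motifs, had the highest level of the 10 and was the 1 member called in crn-3. Its means in the authors' deposited tables were 2145 in crn-3 against 1392 in Col-0, 4058 in clv2-gabi against 1501, and 1171 in cle40-2 against 1508. The fold changes for AT3G15450 were 1.54 in crn-3 (adjusted p = 0.038), 2.7 in clv2-gabi (adjusted p rounding to 0) and 0.78 in cle40-2 (adjusted p = 0.106) in the authors' deposited tables. Genes with means of 1000 and above had a central 95% of 0.83 to 1.14 in crn-3, 0.79 to 1.16 in clv2-gabi and 0.77 to 1.31 in cle40-2. AT5G21940 (chromosome 5, 7249014 to 7250770), annotated as similar to a histidine kinase, had means of 268 in crn-3 against 198 in Col-0, 584 in clv2-gabi against 214, and 186 in cle40-2 against 215, in the authors' deposited tables. Only the clv2-gabi value of AT5G21940 was called, at 2.73-fold in the authors' deposited table with an adjusted p that rounds to 0.

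SIS (AT5G02020, chromosome 5, 385878 to 388231), named for salt induction and a serine-rich protein, was higher in both clv2-gabi and cle40-2. Its means were 147 in crn-3 against 113 in Col-0, 212 in clv2-gabi against 122, and 289 in cle40-2 against 122, in the authors' deposited tables. These correspond to 1.3-fold in crn-3 (adjusted p of 1), 1.74-fold in clv2-gabi (adjusted p = 0.002) and 2.36-fold in cle40-2 (adjusted p rounding to 0) in the authors' deposited tables. SIS, ASN1 and AT2G33830 were the members called higher in both of these mutants.

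The calls were also counted by level in Col-0, with limits chosen after their values were seen. In cle40-2, of the 6 with a Col-0 mean of at least 50, SIS was called, and the other five (DYL1, AT3G15450, DIN10, AKINBETA1 and AT5G21940) had ratios between 0.78 and 1.14 in the authors' deposited table. Of the 4 with a Col-0 mean below 10, ASN1, AT2G33830 and SEN1 were called and BCAT2 was not. In clv2-gabi 5 of those 6 and 2 of those 4 were called. Over all tested genes, 3.21% were called higher in cle40-2 and 0.300% in clv2-gabi, and the share at each level was not computed. Since the members were picked with these comparisons known, the counts by level are a description only. The median log2 change in cle40-2 was 0.68 over all 10 members and -0.14 over the 6 with a Col-0 mean of at least 50, against 1.33 and 1.06 in clv2-gabi. Among all low genes of the table, the range in cle40-2 reached further up than in clv2-gabi or crn-3, while the lower limits were similar. For average means of 10 to 50 and finite fold changes, the central 95% in cle40-2 ran from 0.40 to 6.11. It was 0.42 to 1.72 in clv2-gabi and 0.48 to 1.87 in crn-3. On the log2 scale of means plus 1, which keeps genes at 0 in Col-0, the cle40-2 band was -1.24 to 3.15. ASN1, at 8.02-fold, lay above the first cle40-2 band but, at a log2 change of 2.78, inside the second. AT2G33830, at 12.47-fold and 3.25, lay above both.

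**Figure D2:**
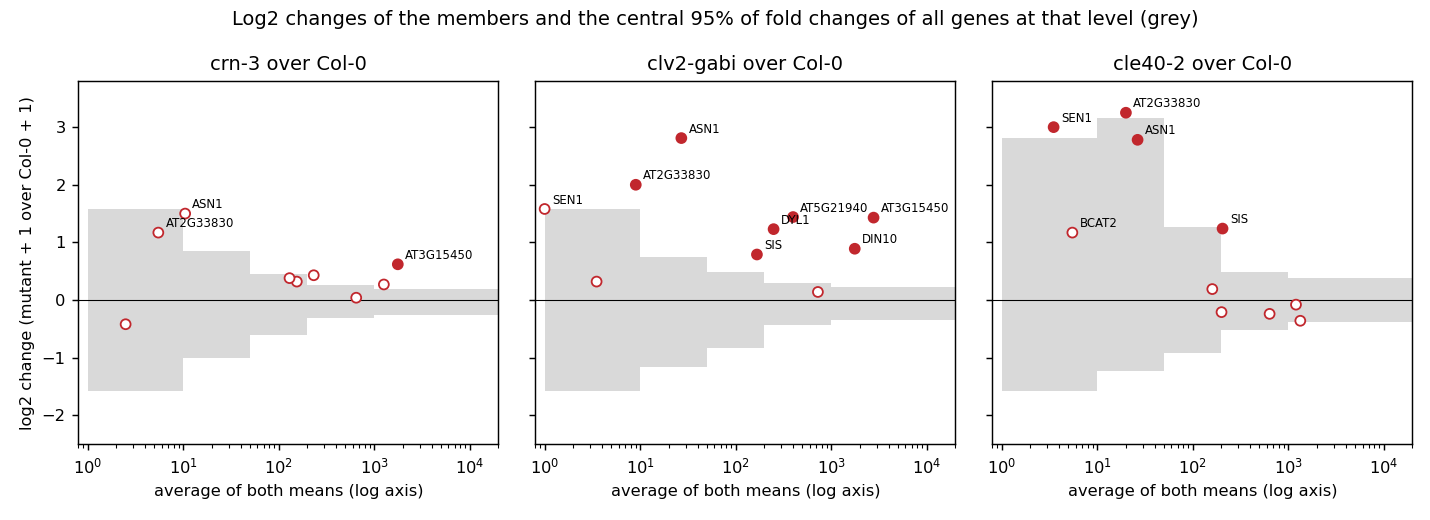
Log2 change of each member (mutant mean + 1 over Col-0 mean + 1) against the average of both means on a log axis, with the central 95% of all genes at that level, on the same log2 scale, in grey and called members filled. In clv2-gabi the called members lie above the grey band from the lowest to the highest levels, while in cle40-2, of the 6 members with a Col-0 mean of at least 50, SIS lies at the step of the band near 200 and the others within the band.

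In Col-0, per kilobase of transcript in the clv2-gabi table, the order of levels was AT3G15450 at 1428, AKINBETA1 at 470, DIN10 at 410, AT5G21940 at 130, DYL1 at 99.7, SIS at 90, AT2G33830 at 3.22, ASN1 at 2.46, BCAT2 at 1.8 and SEN1 at 0. Whether neighbours in this order differ beyond the spread of samples cannot be told from group means. The members were spread over all 5 chromosomes, and their transcripts were 933 to 3011 bases long in TAIR10.1. All 50-base windows of their exons were unique in that genome. For 6 of them the annotation overlaps a gene on the opposite strand, by 11 to 161 bases, and the sources used here do not say whether counting used strand. Of those partners, AT3G15460, which overlaps AT3G15450 by 41 bases, had means in the authors' deposited table of 1181 in clv2-gabi against 1430 in Col-0, and none was called in any mutant.

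The genes around the members had medians near 0. For each, the 10 nearest genes on either side that reached a mean of 50 in the mutant or Col-0 were taken. Around DYL1 in clv2-gabi their log2 changes ran from -0.19 to 0.32 (median 0.03), beside 1.23 for DYL1, and none of the 20 was called. Around ASN1 the range was -0.19 to 1.35 in crn-3, -0.19 to 0.61 in clv2-gabi and -0.52 to 0.67 in cle40-2, with 1 of 20 called higher in each, beside 1.5, 2.81 and 2.78 for ASN1. Over all tested genes, 0.189%, 0.300% and 3.21% were called higher in crn-3, clv2-gabi and cle40-2, and 0.250%, 1.59% and 1.94% lower. The most calls around a member were 3 of 20, all lower, around AT2G33830 in cle40-2. Over all 30 pairs of member and mutant, the flanking medians ran from -0.12 to 0.16. AKINBETA1 and AT5G21940 lie close together on chromosome 5, so each is among the other's neighbours.

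**Figure D3:**
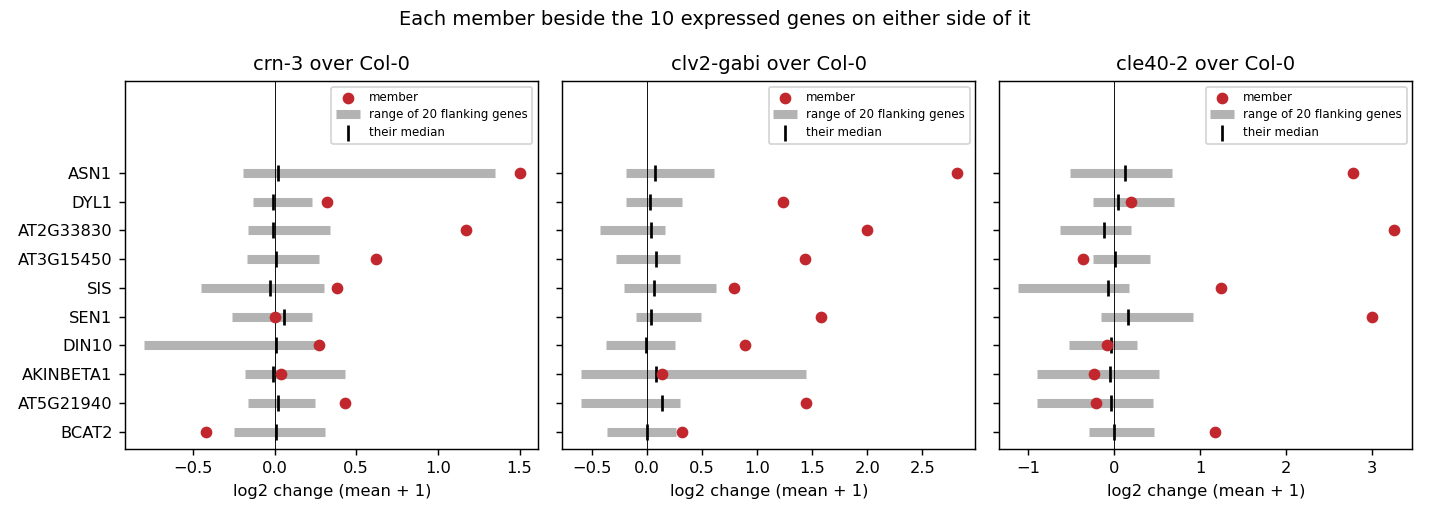
Log2 change of each member (red) beside the range (grey bar) and median (tick) of the 20 nearest expressed genes on its chromosome, 1 panel per mutant. In clv2-gabi every member except AKINBETA1 lies to the right of its neighbours' range, SEN1 and BCAT2 included, which were not called. AKINBETA1, with AT5G21940 among its neighbours, lies inside the range.

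Genes that act with the members were counted next. In all, 132 genes of 10 lists were taken, covering SnRK1 and its targets, sugar signalling and carriers, amino acid use and autophagy. In clv2-gabi 9 of the 127 tested were called higher and 2 lower, that is 7.09% and 1.57%, where 0.300% and 1.59% of all genes were. In crn-3 1 of 125 was called higher and 0 lower (0.8% and 0%, with 0.189% and 0.250% of all genes). In cle40-2 8 of 129 were called higher and 3 lower, 6.2% and 2.33%, where 3.21% and 1.94% of all genes were. The median log2 change of the tested list genes was 0.06 in crn-3, 0.06 in clv2-gabi and 0.10 in cle40-2, and that of all tested genes was 0 in each. The lists were drawn up with earlier results of these data known, so these shares and medians are a description only. The shares over all genes include genes of every level, and the share at the levels of the list genes was not computed. Nothing about the pathway is therefore read from the difference between list genes and all genes.

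Of the 9 genes called higher in clv2-gabi, 5 were from the list of other genes induced by darkness or sugar starvation, where 24 were tested and 0 were called lower. AT5G22920 was taken up for this list as PGPD14 but is annotated as RZPF34, and it was left out of the count for that reason. It was called higher in clv2-gabi, at 402 against 263 in Col-0 (1.53-fold, adjusted p = 0.011), per the authors' deposited table. In crn-3 it stood at 254 against 244 and in cle40-2 at 187 against 265 (0.71 of Col-0, adjusted p = 0.068), neither called, in the authors' deposited tables. The 5 counted genes included that of the zinc finger protein TZF1, at a mean of 469 in clv2-gabi against 220 in Col-0, and MIOX2, encoding an inositol oxygenase, at 728 against 344, in the authors' deposited table. J8, encoding a DnaJ protein, stood at 590 in clv2-gabi against 311 in Col-0, AT3G15630 at 461 against 238, and BT2, encoding a BTB and TAZ domain protein, at 132 against 69 in the authors' deposited table. All 5 were between 1.9-fold and 2.13-fold, with adjusted p of 0.002 for BT2 and rounding to 0 for the others in the authors' deposited table. The median log2 change of this list was 0.28 in clv2-gabi, 0.19 in crn-3 and 0.12 in cle40-2, with 0 of 25 called in crn-3. In cle40-2 1 rose and 1 fell, DIN2, a β-glucosidase gene, to 18 in cle40-2 against 2 in Col-0, and SIP2, of the same family as DIN10, to 3681 against 5500 in the authors' deposited table (adjusted p = 0.001 for each). The lists were drawn up with earlier results of these data known, and no test of a list was made.

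Regulators of the pathway were counted in the same way. Of the SnRK1 subunit and activating kinase genes, 8 tested in crn-3, 8 in clv2-gabi and 9 in cle40-2, 0 were called in any mutant by the authors' adjusted p. Over all tested genes, 0.189% in crn-3, 0.300% in clv2-gabi and 3.21% in cle40-2 were called higher, and 0.250%, 1.59% and 1.94% lower. At such shares, 0 calls in so short a list do not show that its genes were unchanged. The catalytic subunit gene KIN10 had means of 1720 in crn-3 against 1799 in Col-0, 2037 in clv2-gabi against 1940, and 1832 in cle40-2 against 1949, in the authors' deposited tables. Among 9 bZIP genes, bZIP63 was higher in clv2-gabi, at 515 against 352 in Col-0 (1.46-fold, adjusted p = 0.021), in the authors' deposited table. bZIP11 was lower in cle40-2, at 353 against 530 in Col-0 (0.67 of Col-0, adjusted p = 0.02), in the authors' deposited table. Of the 17 trehalose 6-phosphate synthase and phosphatase genes tested, TPS8 at 1.57-fold (adjusted p = 0.011) and TPS11 at 1.48-fold (adjusted p = 0.048) rose in clv2-gabi, per the authors' deposited table. The phosphatase genes TPPA at 1.41-fold (adjusted p = 0.029) and TPPD at 2.77-fold (adjusted p = 0.001) rose in cle40-2, per the authors' deposited table.

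In amino acid metabolism, PRODH1, encoding proline dehydrogenase, was the 1 call of 18 in clv2-gabi, where 0.300% of all tested genes were called higher. PRODH1 rose to 6482, against 4795 in Col-0 (1.35-fold, adjusted p = 0.049), per the authors' deposited table. Of the same 18 genes, 1 was called higher and 1 lower in cle40-2, where 3.21% and 1.94% of all tested genes were. In cle40-2 the asparaginase gene ASPGB1 fell to 335, against 1707 in Col-0, while GLU1, a glutamate synthase gene of green tissue, rose to 63 against 13 (adjusted p rounding to 0 for both), per the authors' deposited table. None of the branched-chain amino acid and lysine breakdown genes was called in any mutant by the authors' adjusted p, 16 being tested in crn-3, 16 in clv2-gabi and 17 in cle40-2. Their median log2 changes were 0.11, 0.14 and 0.11. Over all tested genes, 0.189% to 3.21% were called higher and 0.250% to 1.94% lower, depending on the mutant. At these low shares, the absence of calls in so short a list does not show that its genes were unchanged. Of 15 autophagy genes, ATG8B rose in crn-3, at 301 against 160 in Col-0 (adjusted p = 0.003), and ATG8H in cle40-2, at 688 against 399 (adjusted p rounding to 0), in the authors' deposited tables. Each was the 1 call of 15 in its mutant, where 0.189% and 3.21% of all tested genes were called higher. In clv2-gabi 0 of 15 were called.

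In clv2-gabi 1 of 12 tested genes for sugar carriers, invertases and hexokinase was called lower, and 1 of 5 tested sugar-induced genes. Together they are the 2 lower calls among the list genes there, or 1.57% of those tested. As 1.59% of all tested genes were called lower, nothing is read from these 2 calls. STP13, a hexose transporter gene, was lower in clv2-gabi, at 580 against 821 in Col-0 (adjusted p = 0.037), and higher in cle40-2, at 1452 against 825 (adjusted p rounding to 0), in the authors' deposited tables. CHS, encoding chalcone synthase of the flavonoid pathway and known to be induced by sucrose, was lower in clv2-gabi, at 10766 against 15938 in Col-0 (0.68 of Col-0, adjusted p = 0.003), in the authors' deposited table. In cle40-2 STP4 at 783 against 545 in Col-0 and SWEET12 at 18 against 0 were also higher in the authors' deposited table. With STP13 these made 3 of the 11 carrier list genes tested in cle40-2, where 3.21% of all tested genes were called higher.

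**Figure D4:**
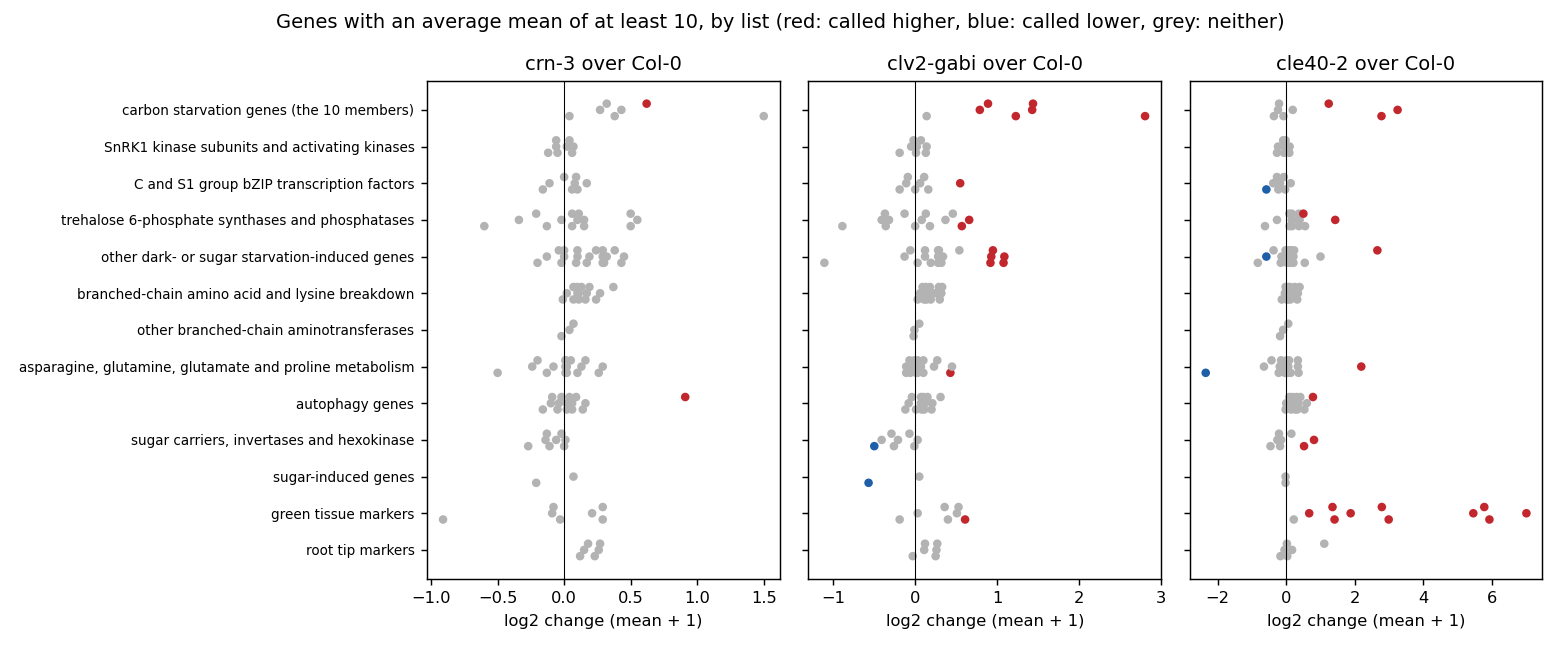
Log2 changes of the members and of the genes of each list with an average mean of at least 10, 1 panel per mutant, each with its own scale, with genes called higher in red and lower in blue. In clv2-gabi the red points gather in the rows of the members and of the other dark- or sugar starvation-induced genes, and in cle40-2 in the row of green tissue markers.

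The genes whose 3 log2 changes were nearest to those of DYL1, by Euclidean distance over the 3 comparisons among 15423 genes with means of at least 50 throughout, were MIOX2 at 0.19, CAO at 0.26, J8 at 0.35, AT3G15630 at 0.35 and TZF1 (listed as ATCTH) at 0.39. CAO (AT2G47450) had log2 changes of 0.50 in crn-3, 1.13 in clv2-gabi and 0.35 in cle40-2, and DYL1 had 0.32, 1.23 and 0.19. ASN1 itself lies below that limit, so genes at its own level were not among the candidates. The 5 nearest to it were CYP705A12 at 2.66, AT3G10020 at 2.74, DOX1 at 2.76, ACC2 at 2.79 and GMI1 at 2.81. All 3 comparisons share Col-0, so this likeness is a description.

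Markers of green tissue were also higher in cle40-2, the mutant in which 4 of the 10 members were called higher. Group means cannot tell whether markers and members were high in the same libraries. Of 12 photosynthesis genes taken as markers of green tissue, 11 were called higher in cle40-2, where 3.21% of all tested genes were. The summed mean of the 12 was 1487 in cle40-2 against 430 in Col-0. RBCS1A, RBCS1B, LHCB2.2 and LHCA2 had a Col-0 mean listed at 0 in the authors' deposited table. In clv2-gabi 1 of the 12 was called higher, where 0.300% of all tested genes were, and the sum was 606 against 429 in Col-0. In crn-3 0 of 11 were called, where 0.189% of all tested genes were called higher and 0.250% lower. The crn-3 sum was 439 against 399 in Col-0. Their part in the values of ASN1, AT2G33830, SEN1 and SIS was not tested. Root tip markers (PLT1, PLT2, WOX5, SMB, BRN1 and BRN2) were present in all groups, with sums of 3196 in crn-3 against 2741 in Col-0, 3358 in clv2-gabi against 2956 and 3024 in cle40-2 against 2970, and 0 of 6 were called by the authors' adjusted p. The shoot meristem markers STM, WUS and CLV3 summed to at most 12 in any group. In such bulk tissue more cells of a type and more RNA per cell cannot be told apart.

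Of the mutated genes, only CLV2 differed in its own mutant by the authors' adjusted p. CLV2 was 21.44-fold in clv2-gabi (adjusted p rounding to 0). Its ratios of 1.12 in crn-3 and 1.24 in cle40-2 were not called. The transcripts of CRN and CLE40 did not check the labels of crn-3 and cle40-2. CLV2 had a mean of 4248 in clv2-gabi against 198 in Col-0, CRN of 111 in crn-3 against 91, and CLE40 of 3 in cle40-2 against 1, in the authors' deposited tables. CLV2 and CRN were thus not lower in their mutants, and CLE40 was too low in Col-0 for a loss to be seen. The directions given above rest on the labels of the libraries.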

How the data were processed

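RNA from root tips of crn-3, clv2-gabi, cle40-2 and Col-0 plants was sequenced. The submitters' processing notes name the build TAIR10, CASAVA 1.8.2 and DESeq (no version); no aligner, counter or annotation is given in the sources used here. Group means in the deposited tables were treated as scores, because the authors averaged normalised read counts and rounded them. The fold change deposited by the authors is mutant over Col-0, taken before rounding. The deposited adjusted p-value has 3 decimals, so that 0 means rounding to 0, its method is not given here, and there is no unadjusted p. Col-0 means differ between tables by a constant factor (1.078 for clv2-gabi and 1.084 for cle40-2 relative to crn-3), so levels were set against Col-0 within a table. Depth per sample is unknown, and the labels do not say whether samples were separate cultures, so the p-values may measure technical spread.

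From these values log2((mutant mean + 1) / (Col-0 mean + 1)), medians and counts at an adjusted p under 0.05 were computed in Python 3.11.15 with pandas 2.3.3, and the code was tested on simulated data. The planned descriptions needed no other test. The members and lists were chosen with earlier results of these data known. The rule for names took all members, up to 4 called genes per list and table by adjusted p (BT2, outside this limit, was named after its values were seen), SnRK1 subunits, ASN2, ASN3 and BCAT genes, and the 5 genes nearest to ASN1 and to DYL1. The mutated genes, AT3G15460, AT5G22920 and green tissue genes at 0 in Col-0 were named outside it, after their values were seen. Of 157 list entries 1 was dropped because its locus carries another symbol. Sequences, positions and lengths are those of TAIR10.1, whose nuclear loci matched 28008 identifiers; 487 did not match. No per-sample column exists in the tables.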

Additional observations from a re-analysis of the deposited data

How the results depend on the processing

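The counts and medians were recomputed at adjusted p under 0.01 and 0.10, among genes whose higher group reached a mean of 50, with pseudocounts of 0.1 and 10, with changes centred on the median gene, with both columns of a table rescaled to the same total, and without ASN1 and DYL1. Restriction to a fold change of 2, to members with a Col-0 mean of at least 50, and to the deposited fold change were chosen after seeing the data. The member median moved by over 1.5 times in cle40-2 with the Col-0 limit, to -0.14 in place of 0.68. The count of members called in crn-3 was 0 at 0.01 and also 0 with a fold change of at least 2, in place of 1, and in cle40-2 it was 1 in place of 4 where the higher group reached a mean of 50. For clv2-gabi it was 5 to 7 throughout. Among the other pathway genes in clv2-gabi, 5 were higher and 1 lower at 0.01, in place of 9 and 2. No called member changed direction, but none of these settings could have reversed one. A pseudocount keeps the sign of a change, and centring and rescaling moved values by far less than the change of any called member. Of 147 values of single members 11 moved by over 1.5 times, all under a pseudocount of 0.1 or 10 and all of ASN1, AT2G33830, SEN1 or BCAT2, whose Col-0 means were at most 6. Leaving out a replicate was not run, since the tables hold group means. No paired analysis was possible because the tables carry no column per replicate.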
